A study of Mus musculus with 3 samples.

Results

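The 4 Janus kinases Jak1, Jak2, Jak3 and Tyk2 and the transcription factors Stat3, Stat4, Stat5a and Stat5b were followed by symbol through 3 single-cell RNA libraries of leukocytes from KP1 tumors, as 8 of the 33696 genes counted. All 8 were found. KP1 is a mouse small cell lung cancer line mutant for Rb and p53. Wild-type F1 mice (B6129SF1/J in the study's methods) carried subcutaneous tumors from 500000 KP1 cells, and in every group live CD45+ leukocytes were sorted at day 19. The first group received mono-IL-10, a monomeric IL-10 that joins both IL-10 receptor chains. The second received IL-10/2-Trikine, in which mono-IL-10 carries an IL-2 variant that recruits IL-2Rβ as the third chain. The last received the antibody anti-PD-1 in addition to IL-10/2-Trikine. Cytokine injections of 3 µg began on day 7 and were repeated on alternate days up to day 19, and anti-PD-1, at 200 µg, was given on day 7, day 11, day 15 and day 19. Although the protocol text can be read as giving the antibody to every mouse, only the treatment label of the last group names it. Each group was 1 library with no replicate, so no difference between groups was tested, and the 95% intervals given cover counting error only. No source used here gives the number of mice behind a library, and no untreated tumor was among the libraries.

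Cytokine receptors of this kind have no enzyme activity of their own. A Janus kinase is bound to the inner part of each chain, and when a cytokine brings the chains together the kinases phosphorylate each other and the receptor, STAT proteins dock there, and phosphorylated STAT dimers move to the nucleus and bind DNA. The IL-10 receptor carries JAK1 and TYK2 and acts mainly through STAT3. The IL-2 receptor carries JAK1 on the β chain and JAK3 on the common γ chain and acts mainly through STAT5A and STAT5B. JAK2 serves receptors such as those for GM-CSF and, with TYK2, for IL-12, and IL-12 acts through STAT4. RNA was measured here, and RNA says nothing of phosphorylation. The question put to the libraries was at which level each cell type held this machinery when the IL-2Rβ arm and then anti-PD-1 were added.

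The starts of these genes differed widely in their content of CG dinucleotides. RefSeq build GRCm38.p6 gave 11 promoter windows for the 8 genes, each from 250 bases before to 50 after an annotated start, and the windows held from 2 to 50 CG, against a median of 7 over 32851 windows. Stat4 had the lowest count and Stat5b the highest, and these ends of the range are printed 5′ to 3′ with each CG in capitals. The Stat4 window lies at chr1:51986898-51987197 on the plus strand, and the Stat5b window at chr11:100850532-100850831 on the minus strand.

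Stat4: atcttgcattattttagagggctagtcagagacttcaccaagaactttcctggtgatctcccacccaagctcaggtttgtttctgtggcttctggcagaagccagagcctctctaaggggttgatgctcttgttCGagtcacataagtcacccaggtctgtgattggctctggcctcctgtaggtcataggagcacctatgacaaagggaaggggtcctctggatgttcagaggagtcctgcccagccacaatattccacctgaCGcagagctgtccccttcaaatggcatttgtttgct

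Stat5b: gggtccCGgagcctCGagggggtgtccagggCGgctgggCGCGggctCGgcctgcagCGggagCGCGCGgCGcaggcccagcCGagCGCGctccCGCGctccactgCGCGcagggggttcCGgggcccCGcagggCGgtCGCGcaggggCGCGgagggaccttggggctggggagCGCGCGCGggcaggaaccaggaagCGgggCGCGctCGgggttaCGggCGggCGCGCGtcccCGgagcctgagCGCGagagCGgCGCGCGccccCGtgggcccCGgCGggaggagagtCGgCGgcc

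Between them came Jak2 with 44 CG, Jak1 with 29, Tyk2 with 23, Stat3 with 15 and Jak3 with 9. Stat5a had windows of 27 and 5, and Stat4 and Stat5b each had another window, of 4 and 7. The spaced palindrome TTCNNNGAA, the form of site that STAT dimers bind and which reads the same on both strands, was searched in each window. It was in 0 of the 11 and in 8.3% of all windows. The absence of these letters from a window says nothing of the factor.

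The libraries held 158570946, 197176873 and 175794959 unique molecular identifiers (UMIs, each standing for 1 captured RNA molecule) for mono-IL-10, IL-10/2-Trikine and the combination, and 22235, 22707 and 26967 cells passed the filters. Between 0.597% and 0.793% of a library's cell barcodes also occurred in another library. Clusters were called T cell-like, NK cell-like and so on from marker lists, and 5 of the 30 clusters, with 11015 of the 71909 cells, stayed unnamed. Although CD45+ cells were sorted, 806, 1000 and 977 barcodes were KP1-like. The label gives mouse T cells as the cell type, yet 5624, 7202 and 8932 cells were T cell-like. Those numbers leave out the unnamed clusters 7, 9 and 15, which held most T cell markers. They had 3224, 2811 and 1667 cells over all libraries. Many myeloid barcodes also held T cell RNA. The macrophage-like cluster 8 had a Cd3e UMI in 85.6% of its cells, at a median of 12025 UMIs per cell, against 9.32% in monocyte-like cluster 4 at a median of 7198, so a part of the values is also given without barcodes that held at least 3 UMIs of another lineage's defining markers.

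A level is given in CPM, the usual scale for sequencing counts, as the share that a gene took of all UMIs held by the cells of a class in a library. So on this scale less of a gene per cell and more of other RNA cannot be told apart. UMIs per cell can differ in direction from CPM. T cell-like Stat4 had 19883 UMIs from 5624 cells with mono-IL-10 and 33929 from 7202 with IL-10/2-Trikine. That was more per cell at a lower CPM. Jak1 in the same cells had 21855 and 26707 UMIs, less per cell and a lower CPM. The directions given below are those of CPM. Reads came from the 3′ end of transcripts, and levels are compared between cells and libraries, not between genes. Classes are ordered by the mean over the 3 libraries, and 9 classes had at least 50 cells in each. Values are in the order mono-IL-10, IL-10/2-Trikine, combination.

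Jak1, the kinase that the IL-10 and IL-2 receptors share, was highest in NK cell-like cells at 902, 549 and 672 CPM, followed by T cell-like cells at 645, 402 and 468 CPM. Both classes were lowest in the IL-10/2-Trikine library. The ranges of neighbouring classes overlapped from NK cell-like down to conventional dendritic cell-like cells (343, 309.5 and 314 CPM), and those did not overlap with the plasmacytoid dendritic cell-like cells after them. Monocyte-like cells held 301, 274 and 258 CPM and macrophage-like cells 268, 277 and 243 CPM. KP1-like barcodes were apart from every leukocyte class at 88.3, 71.1 and 104 CPM, 8.07-fold below the NK cell-like mean. Their mean was 55.6 CPM without barcodes of another lineage, 12.8-fold below, and macrophage-like cells, at 184 to 192 CPM, were then below every other leukocyte class.

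Jak3, the kinase of the common γ chain, was highest in T cell-like and NK cell-like cells. T cell-like cells held 37.4, 22.2 and 30.5 CPM and NK cell-like cells 35.1, 22.3 and 28.8 CPM, and their ranges overlapped each other but none of the other ordered classes. Conventional dendritic cell-like, B cell-like and macrophage-like cells had means of 19.9, 19.0 and 18.1 CPM. Monocyte-like cells were lower, at 15.8, 13.7 and 11.9 CPM. Neutrophil-like cells rested on 8, 22 and 2 Jak3 UMIs and KP1-like barcodes on a mean of 4.4 CPM, so these low values are imprecise.

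Jak2 and Tyk2, the pair at the IL-12 receptor, had their highest means in conventional dendritic cell-like cells. Jak2 stood there at 315, 268 and 349 CPM, next to neutrophil-like cells at 218, 203 and 409 CPM, where the last value rested on 94 UMIs from 116 cells. The 6 other leukocyte classes lay between means of 159.5 and 178.7 CPM, with overlapping ranges; without barcodes of another lineage plasmacytoid dendritic cell-like cells, at 114 to 139 CPM, lay below T cell-like cells, at 149 to 199 CPM. The few mature dendritic cell-like cells (51, 67 and 49), too few in the last library to be ordered, held 842.5, 621 and 1019 CPM of Jak2. Tyk2 ran from 34.0, 22.9 and 27.6 CPM in conventional dendritic cell-like cells down to 19.2, 17.9 and 12.1 CPM in B cell-like cells, and every leukocyte neighbour in that order overlapped with the next. Conventional dendritic cell-like cells without barcodes of another lineage, at 30.4 to 43.8 CPM, were apart from the next class, plasmacytoid dendritic cell-like cells at 23.1 to 24.4 CPM. The conventional dendritic cell-like range lay, with or without those barcodes, above those of T cell-like, macrophage-like, neutrophil-like and B cell-like cells.

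Stat3, the main factor below the IL-10 receptor, was present throughout. NK cell-like cells held 904, 463 and 748 CPM, T cell-like cells 628, 440 and 693 CPM, and macrophage-like cells 491, 471 and 473 CPM. The lymphoid levels thus spread over the libraries, and those of macrophage-like cells did not. The mean of KP1-like barcodes was 3.80-fold below that of NK cell-like cells, the narrowest range between classes of the 8 genes. It was 4.84-fold below without barcodes of another lineage, still the narrowest, and macrophage-like cells held 371, 353 and 397 CPM.

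Stat4, the IL-12 factor, had the widest range. NK cell-like cells held 746, 520 and 689 CPM and T cell-like cells 586, 511 and 647 CPM, and none of the classes ordered after them overlapped with T cell-like cells. B cell-like cells without barcodes of another lineage did, at 224 to 518 CPM against 512 to 649 CPM. Conventional dendritic cell-like cells were at 357, 440 and 400 CPM and B cell-like cells at 320.5, 378 and 478 CPM. Macrophage-like cells held 193, 279.5 and 174 CPM against 37.3, 64.4 and 41.4 CPM in monocyte-like cells, which were lowest, 13.7-fold below NK cell-like cells in the mean. Mature dendritic cell-like cells held more than any ordered class, 1093, 1064 and 1447 CPM.

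The STAT5 genes, the main factors below the IL-2 receptor, are near-identical paralogs, and how reads that fit both were treated in counting was not examined. Stat5b was highest in T cell-like cells at 174, 105 and 146 CPM, followed by conventional dendritic cell-like cells at 115, 97.9 and 115 CPM and NK cell-like cells at 140, 82.2 and 101 CPM. Without barcodes of another lineage the conventional dendritic cell-like mean fell from 109.2 to 49.7 CPM. It was then above only monocyte-like cells among the ordered leukocyte classes. Monocyte-like cells were apart from all classes above and below them at 52.4, 49.6 and 48.6 CPM, but without barcodes of another lineage their range, 46.1 to 48.5 CPM, lay within that of conventional dendritic cell-like cells. Stat5a stood at 55.8, 53.4 and 64.7 CPM in conventional dendritic cell-like cells and 58.8, 45.1 and 66.5 CPM in T cell-like cells, which overlapped. B cell-like cells (41.7, 34.5 and 37.6 CPM) did not overlap with the next class, macrophage-like cells at 34.0, 33.5 and 29.8 CPM, but without barcodes of another lineage they did, at 12.4 to 27.2 and 13.9 to 17.7 CPM. Monocyte-like cells held 19.2, 18.5 and 21.9 CPM. Over the 6 leukocyte classes with the most cells, both STAT5 genes were thus lowest in monocyte-like cells, but without barcodes of another lineage Stat5a was lower in macrophage-like cells, with means of 15.7 against 19.3 CPM.

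**Figure D1:**
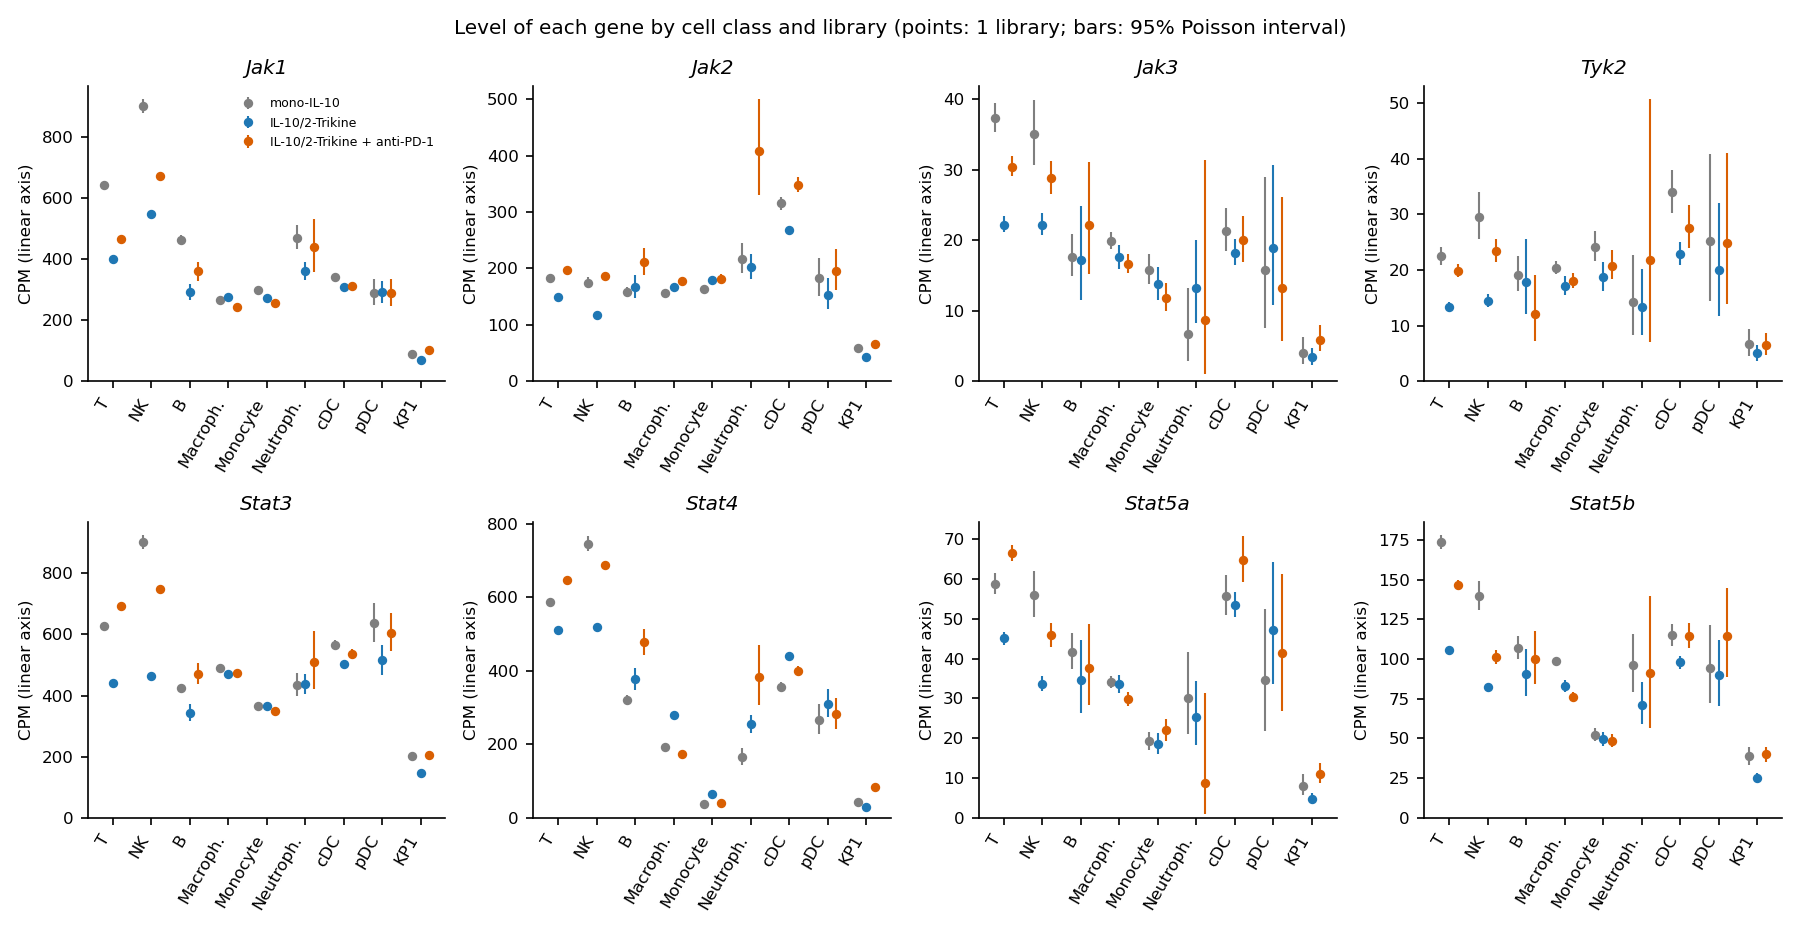
Level of each of the 8 genes (1 panel each, CPM on a linear axis) in the 9 ordered cell classes, with 1 point per library and exact Poisson 95% intervals as bars. Lymphoid points spread between libraries, with IL-10/2-Trikine lowest in T cell-like and NK cell-like cells for every gene, and the KP1-like mean is the lowest for all genes but Stat4.

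Leaving out the barcodes with markers of another lineage left 71.5%, 66.1% and 80.8% of the macrophage-like and 47.4%, 36.0% and 52.1% of the conventional dendritic cell-like cells. Stat4 was among the genes most altered. In macrophage-like cells it then stood at 28.2, 37.2 and 50.6 CPM, and in conventional dendritic cell-like cells at 163, 225 and 266 CPM. NK cell-like cells had a mean of 654.2 CPM and T cell-like cells one of 583.8 CPM, but the filter could change these classes little. It counted T cell markers against neither class and held no NK cell markers. It left 1344, 5010 and 4228 of the 1352, 5027 and 4262 NK cell-like cells. The lowest class was then KP1-like, whose mean was 14.4 CPM in place of 52.5 CPM, 45.3-fold below NK cell-like cells. Monocyte-like cells had a mean of 30.7 CPM. Near-empty barcodes of 10 to 100 UMIs, which hold free RNA, had 161, 464 and 175 CPM of Stat4. The part of free RNA in the myeloid levels was not tested.

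Of the Stat4 UMIs of macrophage-like cells, 91.2%, 89.8% and 83.1% came from cluster 8, which held 23.5%, 28.4% and 16.5% of the cells and 43.9%, 56.6% and 32.1% of all UMIs of the class. Stat4 in that cluster was at 400.3, 443 and 449 CPM. In cluster 1, macrophage-like cells with a Cd3e UMI in 8.54%, it was at 27.2, 28.4 and 38.9 CPM. The shares of the other genes from cluster 8 were lower, for example 53.2%, 64.7% and 42.9% for Jak2, 58.0%, 67.2% and 45.2% for Stat3, and 70.3%, 79.5% and 62.6% for Stat5a.

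Dendritic levels moved in both directions. Without those barcodes Jak2 in conventional dendritic cell-like cells was at 406, 408 and 427 CPM, higher than before in each library. Stat5b there was at 43.8, 45.9 and 59.4 CPM, lower in each, and Stat5a at 40.2, 33.2 and 43.6 CPM. T cell-like cells, with a mean of 56.9 CPM, were then the class with the most Stat5a. The highest class of the other 7 genes stayed the same.

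**Figure D2:**
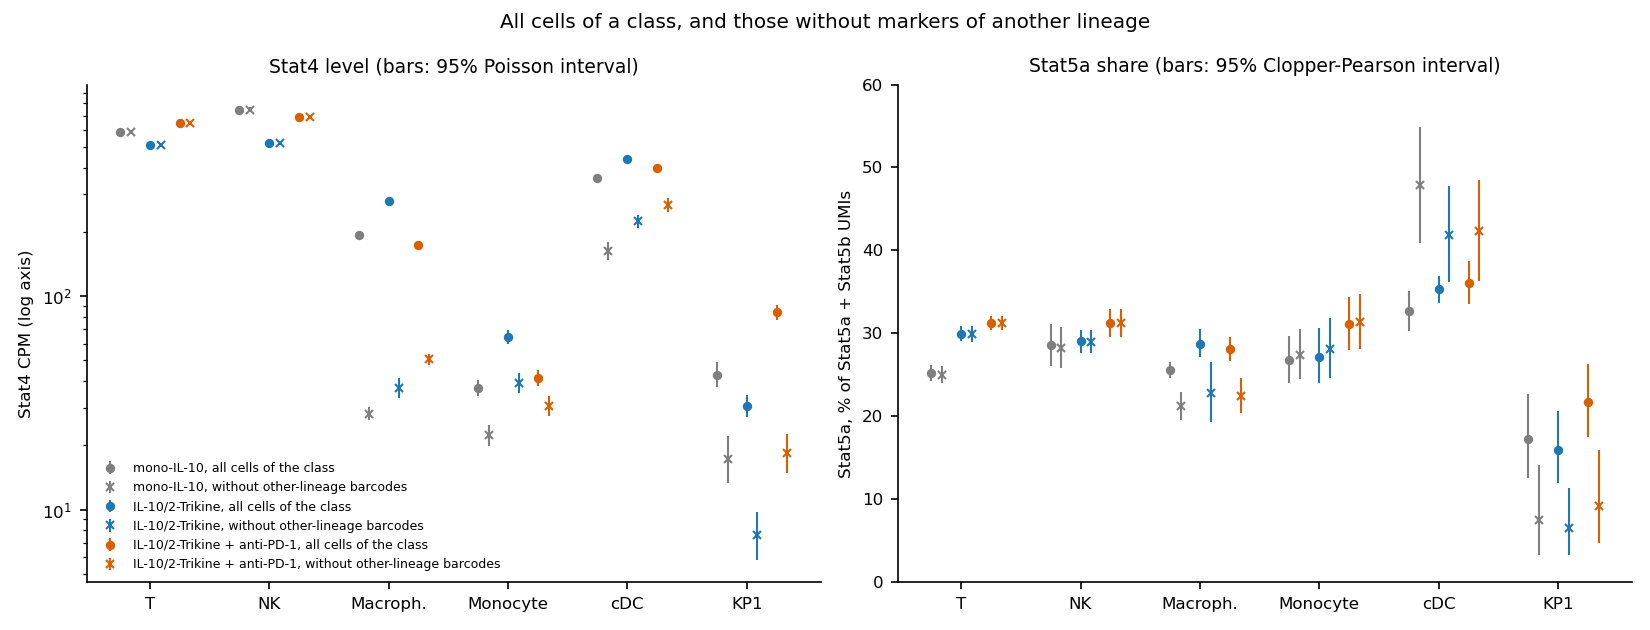
Stat4 level (left, CPM on a log axis) and Stat5a as a percent of Stat5a plus Stat5b UMIs (right, exact binomial 95% intervals), by cell class and library, over all cells and without barcodes that held markers of another lineage. Stat4 of macrophage-like cells moved from 174 to 279.5 CPM down to 28.2 to 50.6 CPM. That of T cell-like cells, of which the filter left out few, hardly moved.

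T cell-like cells of the IL-10/2-Trikine library held less of all 8 genes, as a share of UMIs, than those of mono-IL-10. The median log2 ratio was -0.60, beside -0.13 over the 14673 genes with at least 20 UMIs in the pair. Tyk2, of the IL-10 receptor, was at 22.5 against 13.3 CPM, a log2 ratio of -0.76 (95% interval of the ratio 0.537 to 0.653). Jak3, of the IL-2 receptor, had one of -0.75 (0.552 to 0.642). Stat5b had -0.72 (0.586 to 0.628) and Jak1 -0.68 (0.613 to 0.635). These 4 of the 8 were more than 1.5-fold lower, as were 18.7% of all genes. Stat3 followed at -0.51 (0.688 to 0.713) and Stat5a at -0.38 (0.725 to 0.813). Jak2 at -0.29 and Stat4 at -0.20 were nearest to all genes. With TMM scaling, which moved the log2 ratios of all genes in this class up by 0.18, 0 of the 8 were past 1.5-fold and the 8 stayed lower, and of all genes 16.9% were higher and 12% lower by that much, where unscaled it was 11.1% and 18.7%.

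NK cell-like cells also held less of all 8 as a share of UMIs, with a median log2 ratio of -0.72 beside -0.13 over 13117 genes. Tyk2 was at 29.5 against 14.5 CPM, a log2 ratio of -1.03 (ratio 0.416 to 0.582), and Stat3 at 904 against 463 CPM, one of -0.97 (0.497 to 0.527). The intervals of both lay wholly below the ratios of the other 6 genes. Stat5b had -0.77, Stat5a -0.73, Jak1 -0.72, Jak3 -0.66, Jak2 -0.58 and Stat4 -0.52. Of the 8, 6 were more than 1.5-fold lower, against 20.9% of all genes. With TMM scaling, whose shift here was 0.24, 2 of the 8 were, and of all genes 22.2% were higher and 12.4% lower, where unscaled it was 13.7% and 20.9%.

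The combination differed from IL-10/2-Trikine alone in the other direction. Both comparisons use the same IL-10/2-Trikine library, so their ratios are not independent of each other. In T cell-like cells all 8 were higher with anti-PD-1 as a share of UMIs, by a median log2 ratio of 0.46 beside 0.06 over 15061 genes. Stat3 had the largest, 0.66 (ratio 1.55 to 1.60), and was the only member past 1.5-fold, as were 9.86% of all genes. Tyk2 had 0.58, Stat5a 0.56, Stat5b 0.47, Jak3 0.45, Jak2 0.40, Stat4 0.34 and Jak1 0.22. Jak1 at 468 CPM remained below the 645 CPM of mono-IL-10, and Stat3 at 693 CPM was above its 628 CPM.

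In NK cell-like cells the 8 were likewise higher in the combination, with a median of 0.43 beside 0.06 over 13640 genes. Stat3, Tyk2 and Jak2 had log2 ratios of 0.69, 0.69 and 0.68, and these 3 were past 1.5-fold, as were 11.8% of all genes. The other 5 lay between 0.29 for Jak1 and 0.45 for Stat5a. Only Jak2, at 187 against 174 CPM, was above its level with mono-IL-10 in this class.

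Over the whole macrophage-like class the 8 genes had no common direction. The median log2 ratio of IL-10/2-Trikine over mono-IL-10 was -0.04, and 0 of the 8 were past 1.5-fold in either direction, against 8.48% of 15118 genes higher and 8.26% lower. Stat4 came nearest, at 0.54 (ratio 1.407 to 1.496), and Tyk2 and Stat5b were at -0.25 each. Jak1 at 0.05, Jak2 at 0.10, Stat3 at -0.06 and Stat5a at -0.02 were all close to 0. In the combination over IL-10/2-Trikine, Stat4 had -0.69 (0.600 to 0.643), the 1 member more than 1.5-fold lower, against 9.35% of all genes, and the other 7 lay between -0.19 and 0.09. Without the barcodes of another lineage this Stat4 ratio turned to 0.44, 6 of the 8 genes were lower in the first comparison (median -0.09) and 7 of the 8 higher in the second (median 0.15), with 0 past 1.5-fold, against 3.69% to 6.85% of genes in each direction. Single clusters of the class differed in direction. In clusters 1, 8 and 11, 6 of the 8 were lower in the first comparison and 7, 8 and 7 higher in the second, with medians there of 0.13, 0.26 and 0.24. In cluster 14, where 6 and 7 genes had enough UMIs, 5 were higher and then 6 lower (medians 0.66 and -0.50). That cluster was shallow, at a median of 406 UMIs per cell, with a C1qa UMI in 37.2% of cells against 98.8% in cluster 1. Its ratios may therefore not be those of macrophages. In cluster 25, 5 of 8 were higher and then 7 lower (0.23 and -0.42), and cluster 26 was evenly split in both.

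The remaining classes gave smaller or less precise differences. Monocyte-like cells held Stat4 at a log2 ratio of 0.79 for IL-10/2-Trikine over mono-IL-10 (ratio 1.54 to 1.94), the 1 member more than 1.5-fold higher, against 6.24% of all genes, and -0.64 for the combination over it, the 1 member lower, against 6.38%. Without barcodes of another lineage the latter was -0.36, and 0 members were past 1.5-fold lower, against 4.66% of genes. Conventional dendritic cell-like cells had medians of -0.20 and 0.18 with 0 past 1.5-fold in both, where 8.97% and 8.16% of genes were higher and 11.9% and 9.92% lower. B cell-like cells, of which there were 1497, 172 and 234, had a median of -0.17, above the -0.27 of all genes, and Jak1 at -0.67 was their 1 member more than 1.5-fold lower, against 31.9%. Without barcodes of another lineage Jak1 there had -1.35, and Stat5a, on 87 and 8 UMIs, was also past 1.5-fold lower, against 39.8% of genes. For the combination over IL-10/2-Trikine the B cell-like median was 0.32 with 0 past 1.5-fold, against 16.7% of genes higher and 13.2% lower. Without barcodes of another lineage it was 0.49 with 4 past 1.5-fold higher, against 24.6%. In neutrophil-like cells 2 of the 8, Jak3 and Stat4, were past 1.5-fold higher in IL-10/2-Trikine than mono-IL-10, against 15.3% of genes. There 0 were lower, against 29.5%. Without barcodes of another lineage 7 genes had enough UMIs, and 0 were higher and 2 lower, against 11.6% and 36.1%. Jak2, at 1.01 (ratio 1.59 to 2.54), and Tyk2, at 0.71, were past 1.5-fold higher in the combination, against 22.8% of genes. Tyk2 rested on 22 and 5 UMIs. Stat5a (-1.54) and Jak3 (-0.61), each on 2 UMIs in the combination, were past 1.5-fold lower, against 21.8%. Without barcodes of another lineage 5 genes had enough UMIs in this comparison. All 5 were higher, with a median of 0.41 and 2 past 1.5-fold, against 28.5% of genes. KP1-like barcodes held less of all 8 in IL-10/2-Trikine as a share of UMIs, with a median of -0.43. In the combination they held more, with a median of 0.64 and 5 past 1.5-fold against 11.9% of genes. Without barcodes of another lineage the KP1-like median in the combination was 0.29 with 2 past 1.5-fold against 7.67% of genes, and Tyk2 was higher in IL-10/2-Trikine, at 2.75 and 3.74 CPM, on 10 and 30 UMIs.

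**Figure D3:**
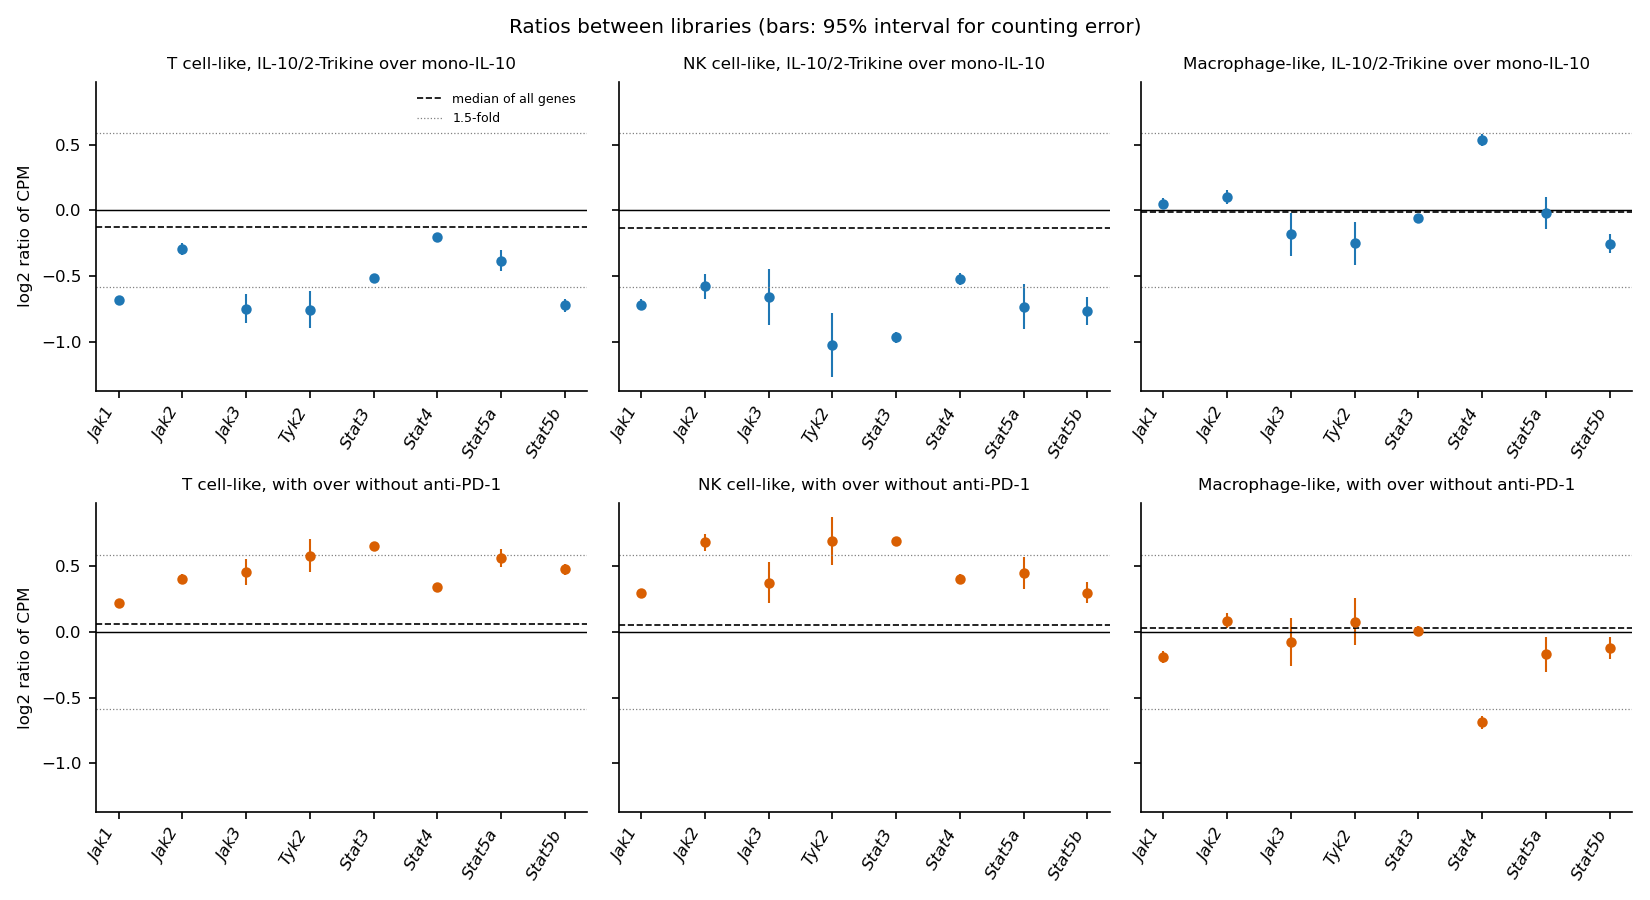
Log2 ratio of each of the 8 genes, for IL-10/2-Trikine over mono-IL-10 and for the combination over IL-10/2-Trikine, in T cell-like, NK cell-like and macrophage-like cells, with exact conditional binomial 95% intervals. The dashed line is the median of all genes and dotted lines mark 1.5-fold. In T cell-like and NK cell-like cells all points are below 0 in the first comparison and above 0 in the second, with medians of -0.60, -0.72, 0.46 and 0.43.

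The makeup of the lymphoid classes differed between the libraries along with these ratios. Cluster 3, T cell-like cells of which 94.2% had an Mki67 UMI and which held 4 of the 10 T cell markers, supplied 38.4%, 75.6% and 52.6% of the T cell-like UMIs, and cluster 13, its NK cell-like counterpart with Mki67 in 94.4%, supplied 14.8%, 62.7% and 32.1% of the NK cell-like UMIs. Mki67 encodes a protein of dividing cells. Its level was 372, 597 and 403 CPM in T cell-like and 247, 558 and 271 CPM in NK cell-like cells, against 15.7 to 23.7 CPM in monocyte-like cells. With each cell thinned to 2000 UMIs, which left out 708, 915 and 1470 T cell-like cells as shallower, 18.1%, 38.9% and 23.8% of T cell-like cells had an Mki67 UMI (26.6%, 49.0% and 32.1% unthinned), against 2.34% to 2.79% of monocyte-like and 16.1% to 20.3% of neutrophil-like cells. Only 31 to 212 neutrophil-like cells had that depth, and their class held Mki67 at 113 to 170 CPM, below the 372 CPM given for the T cell-like class in the first library. For T cell-like and NK cell-like cells the IL-10/2-Trikine library was highest by each of these measures. For monocyte-like and neutrophil-like cells it was highest in Mki67 CPM but not in the thinned share.

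Most of the 8 genes were also lower in IL-10/2-Trikine within single clusters, with medians nearer to 0 than those of the class. Single genes, such as Stat5b in cluster 0 and Tyk2 in cluster 23 (-1.35, on 15 and 12 UMIs), were further from 0 than in the class. Over the 4 T cell-like clusters Jak1 had log2 ratios from -0.35 to -0.26, and the counting intervals of Jak1, Tyk2, Stat3 and Stat5b were below 1 in all 4. How many of all genes had such intervals was not counted. Medians of the 8 genes were -0.37 in cluster 0 (led by Esm1, Cd8b1 and Ccl5), -0.32 in cluster 2 (Cxcr6, Cd4 and Csf1), -0.39 in the Mki67-rich cluster 3 and -0.32 in cluster 23 (Hspa1a). Those of all genes were -0.09, -0.08, -0.07 and -0.14. The lowest ratio in cluster 0 was that of Stat5b, at 198, 111.5 and 135 CPM, a log2 ratio of -0.83. Stat4 lay between -0.45 and 0.10, Jak2 between -0.38 and 0.09, and Jak3 between -0.63 and 0.53. Stat4 thus did not have 1 direction in the 4 clusters. The higher ratios of Jak2 and Jak3, that of Jak3 in cluster 23 on 15 and 44 UMIs, had intervals that held 1.

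The 3 NK cell-like clusters had medians of -0.35 in cluster 5 (Klra8, Klra4 and Ncr1), -0.62 in cluster 6 (Klra7, Klra6 and Klra1) and -0.38 in the Mki67-rich cluster 13. A Cd3e UMI was in 15.6% of cells of cluster 5, 61.9% of cluster 6 and 82.9% of cluster 13. Clusters 6 and 13 therefore need not be NK cells alone. All 8 genes were lower in each of the 3 clusters, and the intervals of Jak1, Stat3, Stat4, Stat5a and Stat5b were below 1 in all 3. Medians of all genes there were -0.08, -0.12 and -0.03, and how many of all genes had such intervals was not counted. For the combination over IL-10/2-Trikine, Stat3 was higher in all 4 T cell-like clusters, by 0.26 to 0.70, and in all 3 NK cell-like clusters, by 0.30 to 0.58, each with an interval above 1. Jak1 in the T cell-like clusters was between -0.02 and 0.08. Of the higher levels with anti-PD-1, those of Jak2, Tyk2, Stat3, Stat5a and Stat5b were present in every T cell-like and NK cell-like cluster. Only Stat3 had an interval above 1 in all of them. The higher levels of Jak1, Jak3 and Stat4 were not present in every cluster.

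Clusters 7, 9 and 15 held 10, 8 and 8 of the 10 T cell markers but stayed unnamed, as markers of other lists were among their leading genes. Cluster 7, led by Tnfsf8, Tnfsf11 and Cd40lg, held Jak2 at 495, 514 and 542 CPM and Stat5a at 146, 75.9 and 131 CPM, both above the levels of the T cell-like class. Cluster 9, with Foxp3 and Itgb8, held Stat5b at 226, 153 and 181 CPM. Cluster 15, with Dapl1, Tcf7 and Ccr7, was mixed, with 5 of the 8 genes higher and 3 lower, and a median of 0.19. Stat4 was at 390, 822 and 790 CPM, a log2 ratio of 1.08, and Jak2 at 146, 249 and 295 CPM, one of 0.77, while Jak1 was at 883, 868 and 856 CPM, Jak3 at 23.0, 18.2 and 13.6 CPM and Tyk2 at 17.0, 14.0 and 20.4 CPM. It had 1321 cells with mono-IL-10 but 208 and 138 in the other libraries.

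**Figure D4:**
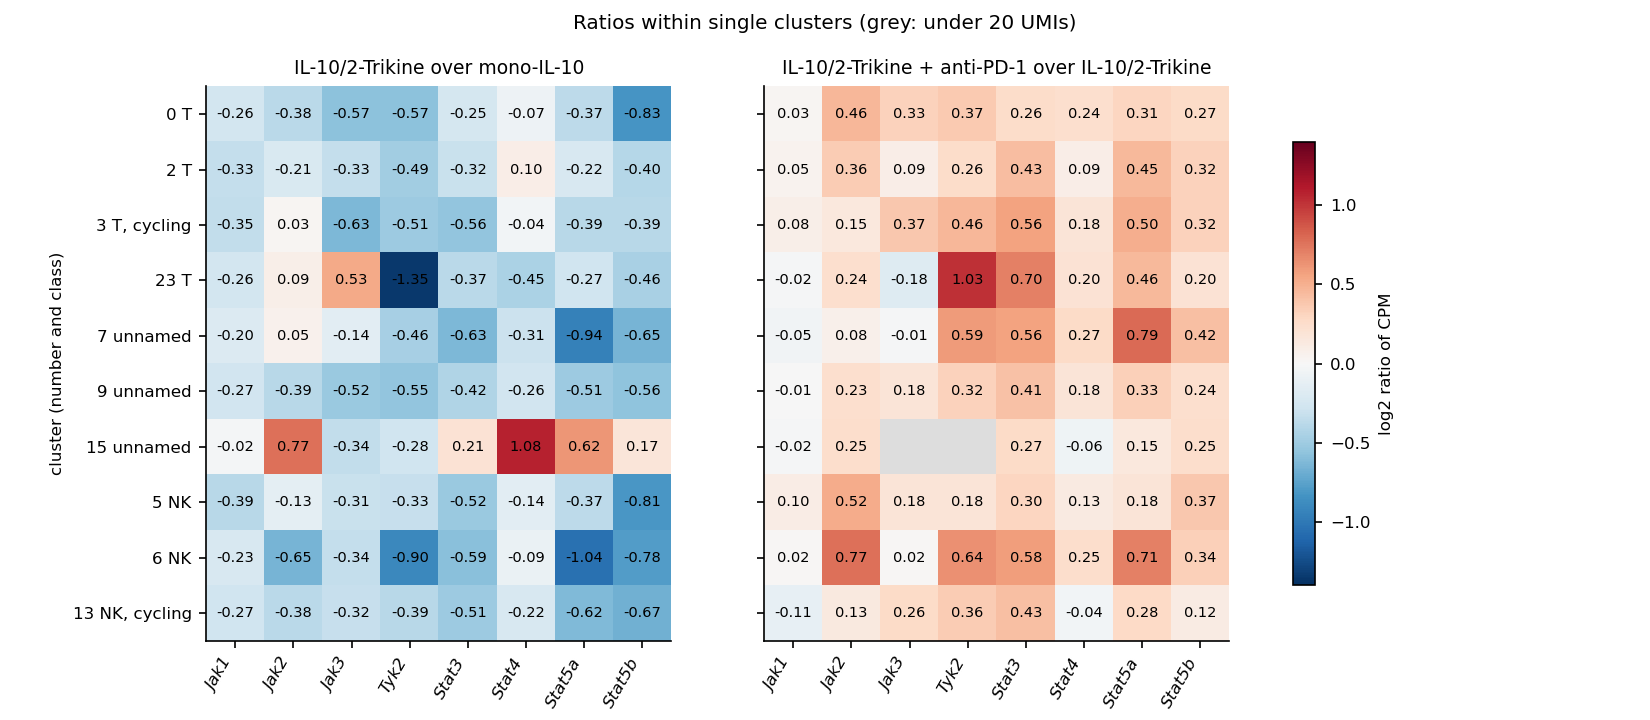
Log2 ratio of each gene within the 4 T cell-like clusters (0, 2, 3, 23), the 3 unnamed clusters with most T cell markers (7, 9, 15) and the 3 NK cell-like clusters (5, 6, 13), with blue for lower and red for higher. In the first comparison cluster 15 stands apart with a median of 0.19, where those of the other clusters run from -0.62 to -0.32.

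Splitting the lymphoid classes by an Mki67 UMI showed which members differ with it. In T cell-like cells without one Jak1 was at 825, 721 and 645 CPM, and in those with one at 471, 328 and 362 CPM, log2 ratios of -0.81, -1.13 and -0.83. Stat3 had ratios of 0.07, -0.10 and -0.16 and Stat5a of -0.03, -0.09 and -0.03 in the same cells. Stat5b, with -0.51, -0.43 and -0.39, lay between them. Jak2, Jak3, Tyk2 and Stat4 were also lower in each library. Jak1 was past 1.5-fold lower in each, and Jak3 (-0.59) with IL-10/2-Trikine, against 17.6%, 25.2% and 23.7% of genes. Cells with an Mki67 UMI were deeper, at medians of 8746 to 12396 UMIs against 2947 to 3691.

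In NK cell-like cells every member but Stat5a was lower with an Mki67 UMI in each library. Stat4 had ratios of -0.43, -0.89 and -0.89 and Jak1 of -0.53, -0.84 and -0.84 between cells with and without an Mki67 UMI, where 13.6%, 21.3% and 23.1% of genes were past 1.5-fold lower. Tyk2 had -0.69, -0.80 and -0.92 and Stat3 -0.46, -0.72 and -0.66. Jak2 had -0.18, -0.55 and -0.85, Jak3 -0.32, -0.62 and -0.45, and Stat5b -0.12, -0.37 and -0.40. The intervals of Jak2, Jak3 and Stat5b held 1 with mono-IL-10. Past 1.5-fold lower were Tyk2 alone with mono-IL-10, and Jak1, Jak3, Tyk2, Stat3 and Stat4 with IL-10/2-Trikine. In the combination Jak1, Jak2, Tyk2, Stat3 and Stat4 were. Stat5a again differed least, at 0.10, -0.10 and -0.17. Among T cell-like cells without an Mki67 UMI the median ratio of IL-10/2-Trikine over mono-IL-10 was -0.36, with 2 genes past 1.5-fold lower against 9.81%, and among those with one -0.53. The medians in NK cell-like cells were -0.45 and -0.71.

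**Figure D5:**
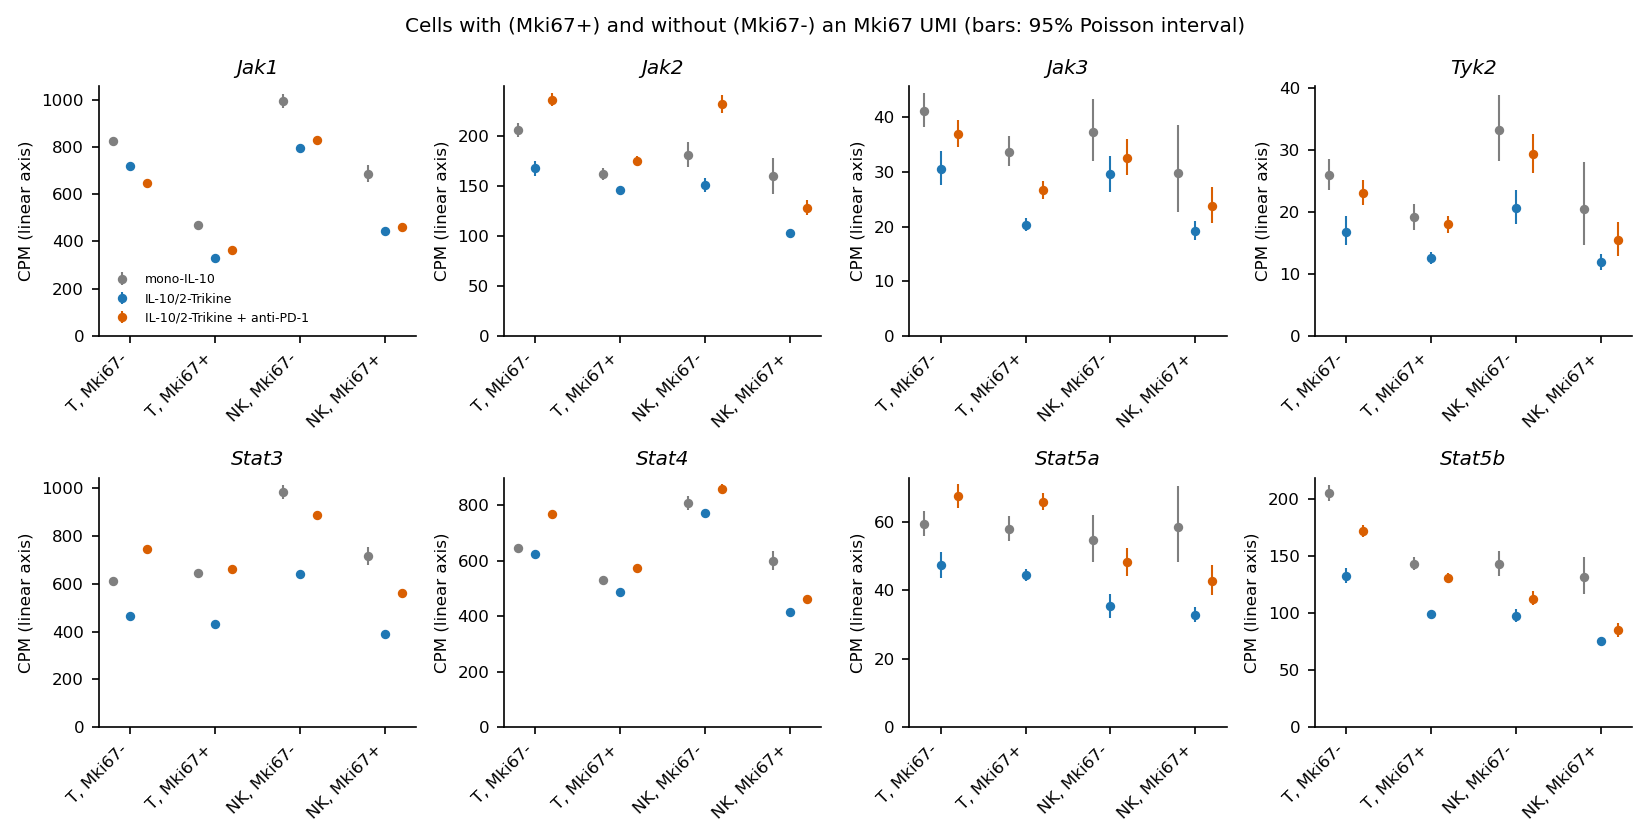
Level of the 8 genes (CPM) in T cell-like and NK cell-like cells without and with an Mki67 UMI, by library. Jak1 of T cell-like cells is at 645 to 825 CPM without and 328 to 471 CPM with an Mki67 UMI, and Stat5a differs little.

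T cell RNA also differed within the NK cell-like class, whose levels of Cd3d, Cd3e and Cd3g together were 890, 1487 and 1161 CPM, against 72.3 to 128 CPM in monocyte-like cells. After thinning to 2000 UMIs 42.5%, 71.4% and 53.9% of NK cell-like cells had such a UMI (48.0%, 73.0% and 55.1% unthinned), against 7.54% to 8.65% of monocyte-like cells. In NK cell-like cells without one Stat3 was at 1087, 763 and 992 CPM, Jak1 at 1004, 723 and 831 CPM, and Stat5b at 99.8, 67.1 and 83.1 CPM. The direction between libraries was the same in these cells, at a median log2 ratio of -0.50, with 2 genes past 1.5-fold lower against 10.6%, and of 0.35 for the combination over IL-10/2-Trikine.

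The balance of the STAT5 genes differed with cell class. Stat5a made up 25.3%, 29.96% and 31.2% of the Stat5a and Stat5b UMIs in T cell-like cells, with exact binomial intervals of 24.3 to 26.3, 29.1 to 30.9 and 30.4 to 32.1. It was lower with mono-IL-10 than in the other libraries by more than counting error. In cluster 0 it was 18.9%, 24.2% and 24.7%, and in the Mki67-rich cluster 3 31.5%, 31.5% and 34.3%, so within cluster 3 mono-IL-10 and IL-10/2-Trikine had the same share to the digits given. Mature dendritic cell-like cells stood at 45.1%, 44.6% and 47.1%, and KP1-like barcodes at 17.2%, 15.9% and 21.7%. Without barcodes of another lineage conventional dendritic cell-like cells were at 47.8%, 41.9% and 42.3%, macrophage-like cells at 21.2%, 22.8% and 22.5% and KP1-like barcodes at 7.48%, 6.55% and 9.24%.

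Of the 56 other genes of the pathway listed, 4 were more than 1.5-fold higher and 11 lower in T cell-like cells of IL-10/2-Trikine than of mono-IL-10, with a median log2 ratio of -0.32, against 11.1% and 18.7% of all genes. The higher ones were Socs2, a STAT5-induced inhibitor, at 8.38 and 36.2 CPM (2.11), Il2ra, the IL-2 receptor α chain, at 87.7 and 211 CPM (1.27), the cytokine Osm (0.95), and Il9r, which rested on 15 and 46 UMIs (ratio 0.859 to 3.02). Among the lowest were Il10ra, the ligand-binding IL-10 receptor chain, at 63.5 and 21.3 CPM (-1.57), Il6ra (-1.48), the inhibitor Socs5 (-0.96) and the kinase Pim2 (-0.89). The α chains of the receptors named in this treatment thus lay towards opposite ends of the list.

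Receptor chains that pair with them differed less. Il10rb was at 49.2, 39.0 and 43.4 CPM, Il2rb at 267, 256 and 346 CPM and Il2rg at 345, 252 and 356 CPM. Among the inhibitors, Socs3 was at 83.6, 51.2 and 62.5 CPM, Cish at 52.4, 59.8 and 71.6 CPM and Socs1 at 73.8, 92.0 and 123 CPM. In the T cell-like class Socs3, which STAT3 induces, was highest with mono-IL-10, and Cish and Socs1 were highest in the combination. Not every cluster shared these orders. Socs3 was highest with mono-IL-10 in clusters 0, 3 and 23 but not in cluster 2. Cish was highest in the combination in clusters 0, 2 and 3 but not in cluster 23. Socs1 was highest there in each of these clusters. Il2rg was lower with IL-10/2-Trikine than with mono-IL-10 except in cluster 2, at 386, 431 and 469 CPM. In NK cell-like cells Socs1 was at 109.9, 85.7 and 109.5 CPM. By groups in T cell-like cells, for IL-10/2-Trikine over mono-IL-10, 0 of 4 PIAS genes were past 1.5-fold. Of 8 SOCS genes 1 was higher and 2 were lower, beside the 11.1% and 18.7% of all genes. Of 14 genes listed as induced by STAT3 or STAT5, 1 was higher and 1 lower. In NK cell-like cells 0 of these 14 were higher and 10 lower (median -0.89), against 13.7% and 20.9% of all genes.

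In the combination over IL-10/2-Trikine 7 were higher and 2 lower in T cell-like cells, with a median of 0.26, against 9.86% and 5.90% of all genes. Il21r, the IL-21 receptor, was at 141 and 266 CPM (0.92) and the AP-1 gene Fosl2 at 65.4 and 119 CPM (0.87). Csf2rb, the common β chain, had 0.88 and the survival gene Bcl2l1 0.82. The lower ones were Il9r (-1.57) and Osm (-0.60). In NK cell-like cells 2 of 55 were higher and 32 lower in IL-10/2-Trikine, with a median of -0.60 against 13.7% and 20.9% of all genes, and 15 higher and 1 lower in the combination, against 11.8% and 7.12%. In macrophage-like cells 10 of 56 were higher and 1 lower in the first comparison, against 8.48% and 8.26% of all genes, and 1 of 55 higher and 7 lower in the second, against 8.08% and 9.35%. The higher ones included Il2ra, at 33.5 and 107 CPM, and Il2rb, at 99.1 and 171 CPM. Without barcodes of another lineage these were at 2.72 and 8.78 CPM and at 11.2 and 27.4 CPM, 6 of 55 genes were higher and 0 lower in the first comparison, against 6.85% and 5.2% of all genes, and 0 were past 1.5-fold in the second, against 5.3% and 3.69%. The part of T cell RNA in these counts was not tested.

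The genes most alike to each member over the 9 classes were taken from 6710 genes by Pearson's r of log2(CPM + 1), as a description, since classes share libraries. Zc3hav1 was nearest to Jak1 (0.971), Arhgap31 to Jak2 (0.961), Zfp52 to Jak3 (0.981) and Orai1 to Tyk2 (0.961). Mbnl3 was nearest to Stat4 (0.989), Rac2 to Stat3 (0.966), H1f2 to Stat5a (0.967) and Def6 to Stat5b (0.976). Between members, r was highest for Stat4 with Stat5b (0.946) and Stat5a with Stat5b (0.945) and lowest for Jak2 with Stat4 (0.547). All these r include the KP1-like class, lowest for every member but Stat4, and the barcodes that held markers of another lineage. Values of r without them were not computed.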

How the data were processed

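Leukocytes of 3 KP1 tumor groups were profiled with 10x 3′ v3.1 chemistry, 1 library per group. The authors deposited raw UMI counts per gene and barcode from Cell Ranger. The matrix headers give version 8.0.0, which differs from the study's methods, and the labels give mm10 where the methods give GRCm39. The build used in counting is thus not certain, and the only coordinates given are those of promoter windows in RefSeq build GRCm38.p6. Reads in introns were counted per the methods. Barcodes under 200 detected genes or over 20% mitochondrial counts were removed, which left more cells per library than the study states under the same filter.

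Counts were scaled to 10000, and 2000 variable genes without the 8 members, the pathway list and cell cycle genes gave 30 components, 20 neighbours and Leiden clusters (resolution 1, seed 1; Python 3.11.15, leidenalg 0.10.2, igraph 0.11.9, scikit-learn 1.9.0, numpy 2.4.6, scipy 1.17.1). Libraries were not integrated and no doublet caller was run. Instead, barcodes with at least 3 UMIs of another lineage's defining markers were left out as an alternative. The lineages counted were T cell, macrophage, B cell and KP1. T cell markers were not counted in NK cell-like cells, nor macrophage markers in other myeloid classes, and there was no NK cell list. A cluster was named from at least 3 detected markers when its 10 leading genes, against clusters of other classes, held no more markers of another list. A cluster with a median UMI count under 0.333 of its libraries' stayed unnamed where no marker of its list was among those 10. That reference was chosen after the clusters had been seen. Names may differ from the study's.

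UMIs were summed per class and library. Levels carry exact Poisson and ratios exact conditional binomial 95% intervals, and a gene needed 20 UMIs in a pair. The statistics were tested on simulated data. Members, lists and markers were chosen with earlier results of these data known. Named pathway genes were the 5 highest and 5 lowest past 1.5-fold in T cell-like cells, with levels of receptors and inhibitors chosen after their values were seen, and 1 gene that this rule names is not reported here. The alike genes were the 3 with the highest r for each member, among genes with a mean of at least 20 CPM, and the first is printed. Strand was used in counting, and Stat3 and Stat5a, whose ends overlap on opposite strands, were taken as counted.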

Additional observations from a re-analysis of the deposited data

Results flagged for a closer look

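Some ratios of the same gene pointed in opposite directions in different cell classes, with both past 1.5-fold. Each class had 1 library per group, and none of these differences was tested. Jak3 for IL-10/2-Trikine over mono-IL-10 had a log2 ratio of 0.989 in neutrophil-like cells, on 8 and 22 UMIs (interval of the ratio 0.851 to 5.16), against -0.748 in the T cell-like class and -0.659 in the NK cell-like one. For the combination over IL-10/2-Trikine, Jak3 had 0.79 in KP1-like barcodes and -0.611 in neutrophil-like cells, the latter on 22 and 2 UMIs. Without barcodes holding markers of another lineage the KP1-like value was 0.19, on 17 and 12 UMIs.

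Stat4 for the combination over IL-10/2-Trikine had 1.45 in KP1-like barcodes against -0.687 in macrophage-like and -0.639 in monocyte-like cells. Without barcodes of another lineage these were 1.27, 0.44 and -0.36, so no opposite values past 1.5-fold remained. Stat4 in near-empty barcodes was at 161, 464 and 175 CPM over the libraries, highest in IL-10/2-Trikine, as it was in the macrophage-like and monocyte-like cells, and its part in these ratios was not tested. Stat5a in the same comparison had 1.23 in KP1-like barcodes and -1.54 in neutrophil-like cells, the latter on 42 and 2 UMIs, and without those barcodes it had 0.69 in KP1-like barcodes, on 11 and 11 UMIs, and too few UMIs for a ratio in neutrophil-like cells.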

How the results depend on the processing

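No paired analysis was possible because each group held 1 library, and no library could be left out. The median of the 8 genes in NK cell-like cells for IL-10/2-Trikine over mono-IL-10 was -0.72, and -0.45 in cells without an Mki67 UMI, -0.50 in cells without a Cd3 UMI (chosen after seeing the data), -0.48 with TMM factors, -0.51 with median-of-ratios factors and -0.47 as a mean of CPM per cell, always lower. The number past 1.5-fold lower there was 6, against 20.9% of all genes. It was 3 against 11.1% without Mki67, 2 against 10.6% without Cd3, 2 against 12.4% with TMM, 2 against 13% with median-of-ratios, 3 against 16% as a mean per cell and 4 against 17.7% with a marker gate per cell. In T cell-like cells that median lay between -0.61 and -0.36 over the alternatives and the number was 4 as reported against 18.7% of genes, 0 with TMM against 12%, 1 with median-of-ratios against 12.4%, 1 with the gate against 19.7%, 2 without Mki67 against 9.81% and 2 as a mean per cell against 16.4%. For the combination the medians lay between 0.32 and 0.49 in T cell-like and 0.33 and 0.43 in NK cell-like cells. In T cell-like cells 1 member was then past 1.5-fold higher where 9.86% of genes were, 3 where 9.79% were under a stricter naming of clusters (also chosen after seeing the data), and 0 where 7.89% were with median-of-ratios. In NK cell-like cells 3 were where 11.8% of genes were, 1 where 7.8% were without Mki67 and 1 where 7.3% were without Cd3. In macrophage-like cells the median of the combination over IL-10/2-Trikine moved from -0.10 to 0.12 with the gate and 0.15 without barcodes of another lineage, and the ratio of Stat4 reversed to 0.44 in the latter. Of the 8 genes, 4 kept their highest class with the gate and 7 without barcodes of another lineage. Of 48 values, the marker gate moved 37, leaving out cells with Mki67 30, the mean per cell 28, each of TMM and median-of-ratios 25, resolution 2 12, and a minimum of 500 genes 0. The low counts of Jak3, Tyk2 and Stat5a in neutrophil-like cells limit their precision.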
